A study of Mus musculus with 5 samples.

Results

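The S100 genes encode small calcium-binding proteins, and 10 members of the family (S100a1, S100a4, S100a5, S100a6, S100a7a, S100a8, S100a9, S100a10, S100a11 and S100a13) were followed here, out of 28001 features in each library. Members were matched by gene symbol, and all 10 are listed in all 5 libraries. The set was chosen with earlier results of these data known, and other S100 genes among the features are not part of it. Each captured RNA molecule was tagged and counted once as a UMI (unique molecular identifier), and these raw counts were read in single cells of 1 muscle and 4 mouse epithelioid sarcomas, tumours that arise when the chromatin-remodelling subunit Smarcb1 is lost. The muscle library held FACS-purified mesenchymal progenitors of resting hindlimb muscle from C57BL/6J mice with the genotype Hic1CreERT2/CreERT2;Rosa26LSLtdTomato/+. The FACS-purified sarcoma libraries came from C57BL/6J mice with the genotype Hic1CreERT2/CreERT2;Rosa26LSLtdTomato/LSLtdTomato;Smarcb1FL/FL and were taken at the shoulder (sarcoma 1), head (sarcoma 2), head/ear (sarcoma 3) and hip (sarcoma 4). All groups carry CreERT2 at both copies of Hic1, so recombination follows Hic1 expression and not a single cell type, and all received 2.5 mg of tamoxifen in 100 µL of sunflower oil on each of 5 days at 8 weeks of age, followed by a washout of 10 days. Muscle and sarcoma differ at once in Smarcb1 alleles, in the number of reporter alleles, in site and in being a tumour. The sarcomas are labelled endpoint and the muscle quiescent, so the time from tamoxifen to collection may differ as well. These differences cannot be told apart. The labels do not state that each tumour grew in its own mouse, so a p-value here reflects variation among the deposited libraries, part of which may be technical.

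S100 proteins carry a pair of EF-hand loops, mostly work as dimers and expose a binding surface when calcium rises, through which each member contacts its own partners. S100a10 is unusual in that its loops no longer bind calcium and it instead joins annexin A2 at membranes, S100a4 binds non-muscle myosin IIA and is widely used as a fibroblast and metastasis-associated gene, and S100a6 binds the ubiquitin-ligase adaptor Cacybp. S100a8 and S100a9 form the heterodimer calprotectin, which neutrophils and monocytes store in bulk and which signals through the receptors Ager and Tlr4.

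Each matrix held 7296 to 8812 barcodes, and 6824 to 8107 cells per library remained after keeping those with at least 500 genes and at most 10% mitochondrial UMIs. Depth differed, with a median of 7566 UMIs per kept cell in muscle and 20005 to 28657.5 in the sarcomas, so shares of cells are given after thinning every cell to 2000 UMIs. Pairs of libraries shared 12 to 22 barcodes. Sarcoma cells were defined as cells of a sarcoma library with at least 2 Gchfr UMIs and 0 Smarcb1 UMIs, which gave 5142, 7423, 2851 and 3265 cells in sarcomas 1 to 4 and 0 cells in muscle. Stroma was defined by at least 4 UMIs over Ddah1, Wisp1, C1qtnf7 and Fbn2, which gave 184, 156, 1732 and 79 cells. The 218 cells that met both rules were left out of both classes, and 2067, 603, 2303 and 3389 cells met neither. Muscle means all 8107 kept cells of that library.

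The stroma class of sarcoma 4 went against its name. The summed level of the fibroblast matrix genes Pdgfra, Dcn, Col3a1, Col1a1 and Lum was 26399, 35137 and 41261 CPM (UMIs of the gene per 1e6 UMIs of the class) in the stroma of sarcomas 1 to 3, 35064 in muscle, but 3276 in these 79 cells. They held the sarcoma transcript Cdkn2a at 94.9% of its level in the sarcoma cells of the same tumour and Nefl at 123%, and Smarcb1 at 9.75 CPM, against 45.1 to 66.4 in the stroma of sarcomas 1 to 3. Their values are printed for every member, and each member's fitted difference from stroma is also given without sarcoma 4. The stroma of sarcoma 1 held Cdkn2a at 22.8% and Nefl at 24.4% of the sarcoma-cell level, and that of sarcomas 2 and 3 held these 2 genes at 7.87% to 17.9%. Spp1, listed among the sarcoma transcripts, was on the contrary higher in the stroma class of all 4 libraries (1791, 13362, 845 and 2564 CPM) than in their sarcoma cells (466, 158, 27.3 and 935).

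All 10 members lie on mouse chromosome 3 in the GRCm38 build (GENCODE M21), from base 90511034 to base 93564643, and no pair of member genes overlaps. S100a4 (chr3:90603771-90606045, plus strand), S100a5 (chr3:90608523-90611780, plus strand) and S100a6 (chr3:90612882-90624181, plus strand) follow one another within 20.4 kb. S100a1 (chr3:90511034-90514392, minus strand) and S100a13 (chr3:90514435-90524581, plus strand) start back to back, 42 bases apart. S100a7a, S100a8 and S100a9 lie between bases 90654017 and 90695721, while S100a11 and S100a10 lie 2825 kb further on. Promoter windows of 250 bases before the RefSeq start (GRCm38.p6) were matched for 9 of the 10 members, all but S100a10. Both strands were searched for the TATA-box letters TATAAA, found in 12.4% of the 32851 windows of the table, and for the Sp1-type letters GGGCGG, found in 32.7%. The AP-1 letters TGANTCA are in 6.75% and the C/EBP letters TTNNGCAA in 9.56%. No matches overlap in the windows printed here, and a match describes letters, not a bound site.

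The promoters shown are those of S100a5, which was at least 4 times the muscle level in each sarcoma, of S100a11, and of the members with a TATA-box match, read 5′ to 3′ on the gene's strand with matched motifs in capitals. For S100a4 and S100a8, the only members with this match, 30 bases around it are given. It begins 31 bases before the RefSeq start of S100a4 and 30 before that of S100a8, whose GENCODE gene starts earlier and includes the stretch. The S100a5 window holds none of the 4 motifs. S100a11, the member that was lower in sarcoma cells than in stroma in each library, has 3 GGGCGG and 2 AP-1 matches, while the S100a1, S100a6, S100a7a and S100a13 windows hold none and S100a9 holds 1 GGGCGG and 1 C/EBP match. The last line is the strip between the starts of S100a1 and S100a13, read on the plus strand (chr3:90514393-90514434).
S100a4, chr3:90603727-90603756 (plus): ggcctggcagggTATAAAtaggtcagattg
S100a8, chr3:90669029-90669058 (plus): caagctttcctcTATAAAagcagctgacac
S100a5, chr3:90608272-90608521 (plus): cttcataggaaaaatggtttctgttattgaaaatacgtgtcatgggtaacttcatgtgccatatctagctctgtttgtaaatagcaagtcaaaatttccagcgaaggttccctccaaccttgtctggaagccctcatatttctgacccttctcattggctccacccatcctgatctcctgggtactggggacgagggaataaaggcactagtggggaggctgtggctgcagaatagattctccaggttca
S100a11, chr3:93520246-93520495 (plus): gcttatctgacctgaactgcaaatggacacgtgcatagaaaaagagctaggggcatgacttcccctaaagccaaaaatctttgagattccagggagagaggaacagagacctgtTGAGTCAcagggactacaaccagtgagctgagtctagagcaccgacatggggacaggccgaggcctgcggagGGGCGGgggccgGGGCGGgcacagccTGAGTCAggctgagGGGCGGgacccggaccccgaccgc
S100a1/S100a13 strip: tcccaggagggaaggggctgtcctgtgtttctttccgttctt

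The family made up a larger part of the RNA of sarcoma cells than of stroma or muscle. Summed over the 10 members it took 1.20% of all UMIs in muscle, 3.02%, 2.42%, 1.56% and 2.28% in the sarcoma cells of sarcomas 1 to 4, and 1.28%, 1.17%, 0.795% and 2.13% in the cells that met the stroma rule. Sarcoma cells lay above muscle in 4 of 4 libraries and above the stroma class of the same library in 4 of 4. S100a6 supplied 69.4% of the family's UMIs in muscle and 78.5%, 58.9%, 73.9% and 41.6% in the sarcoma cells of sarcomas 1 to 4. At 2000 UMIs a muscle cell held a UMI of 3.61 members on average, a sarcoma cell 4.69, 5.32, 3.89 and 4.86, and a stroma cell 3.62, 3.75, 3.44 and 4.32.

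**Figure D1:**
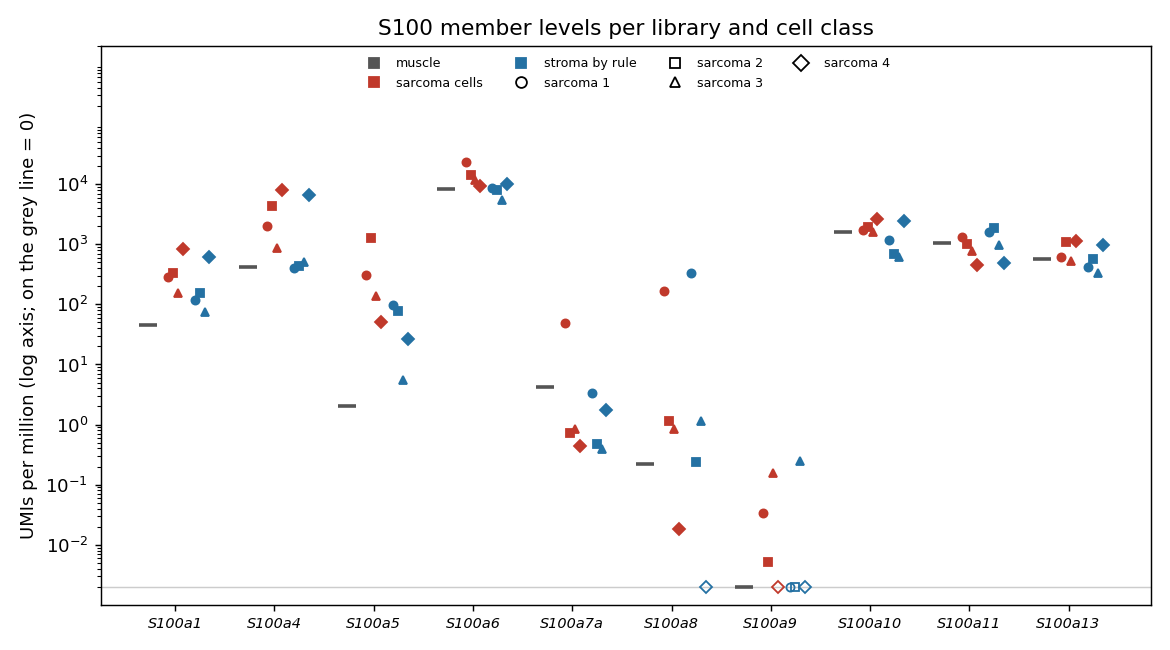
Level of each member in CPM on a log axis, for muscle (grey bar), sarcoma cells (red) and cells that met the stroma rule (blue), with 1 symbol shape per sarcoma; a symbol on the grey line is 0. S100a6 lies between 5445 and 23731.5 in all sums, S100a5 is at 2.07 in muscle and 50.5 to 1263 in sarcoma cells, and S100a8 exceeds 100 in sarcoma 1 alone.

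A member was called broad when at least 50% of thinned cells held a UMI in muscle and in both classes of every sarcoma, and tumour-restricted when sarcoma cells reached at least 4 times the level of both muscle and the same tumour's stroma in at least 3 of 4 sarcomas. By this description S100a6 and S100a10 were broad, none of the 10 members was tumour-restricted (1.06% of the 10544 genes at 10 CPM or more were), S100a9 stayed under 10 CPM in every sum, and the other 7 lay between. S100a11 missed the broad class through sarcoma 4, where 48.1% of sarcoma cells held a UMI (95% binomial interval 46.4% to 49.8%). S100a13 was under it in 3 stroma sums, at 44.4% to 49.4%. S100a4 and S100a5 met the tumour-restricted limit in 2 of 4 sarcomas each, with stroma by the rule. The call depends on that class. With the stroma free of 4 sarcoma transcripts described below, S100a5 was 45.5, 107, 85.4 and 12.6 times stroma and would meet the limit. S100a4 stayed under it in sarcomas 3 and 4 (1.74 and 3.86). That stroma was chosen after seeing the data, and the share of all genes was not counted with it. Intervals here cover counting error only, and levels are not compared between members, since captured fragments and gene length differ.

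S100a6, the Cacybp-binding member, was detected in nearly every cell. It reached 8333 CPM in muscle, 23731.5, 14281, 11545 and 9492 in the sarcoma cells of sarcomas 1 to 4, and 8583, 7941, 5445 and 10018 in their stroma classes. After thinning, 99.5% to 100% of cells held a UMI in each of the 9 sums. Sarcoma cells exceeded muscle in 4 of 4 libraries, by 1.14-fold (sarcoma 4) to 2.85-fold (sarcoma 1), and exceeded stroma in 3 of 4. The log2 fold change of sarcoma cells over stroma was 0.84 ± 0.29 (SE; edgeR quasi-likelihood test, Benjamini-Hochberg adjusted p = 0.166) and 1.12 ± 0.25 without sarcoma 4 (adjusted p = 0.0727), so it did not pass 0.05 in either.

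S100a10, the annexin A2 partner, had a muscle level of 1586 CPM and sarcoma-cell levels of 1731, 1978, 1625 and 2667, a spread of only 1.64-fold over the tumours. The stroma classes held 1179, 690, 613 and 2446. In sarcomas 1 to 3 stroma was therefore below muscle and sarcoma cells above it, whereas in sarcoma 4 both classes were above muscle. The excess of sarcoma cells over muscle was only 1.09-fold, 1.25-fold and 1.02-fold in sarcomas 1 to 3. Muscle cells with progenitor markers alone held 1708 CPM, above the sarcoma cells of sarcoma 3. The thinned share of cells was 82.4% in muscle, 82.0% to 91.1% in sarcoma cells, and 71.0%, 60.3%, 61.6% and 92.4% in the stroma classes. Over stroma the log2 fold change was 0.91 ± 0.27 (edgeR adjusted p = 0.140) and 1.15 ± 0.25 without sarcoma 4 (adjusted p = 0.0705).

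S100a11, a partner of annexin A1, was lower in sarcoma cells than in the stroma of each library. Muscle held 1046 CPM, sarcoma cells 1342, 996, 765 and 450, and the stroma classes 1631, 1866, 973 and 485. Within each library sarcoma cells were below stroma, at 0.823, 0.534, 0.786 and 0.927 of its level, and no other member was lower in 4 of 4 libraries (16.2% of tested genes were). The log2 fold change was -0.40 ± 0.19 (edgeR adjusted p = 0.234) and -0.53 ± 0.19 without sarcoma 4 (adjusted p = 0.151). Against muscle the values straddled it, with 1 sarcoma above and 3 below, and the estimate of -0.01 ± 0.71 changed sign when sarcoma 3 or sarcoma 4 was left out (0.11 and 0.20).

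S100a13, which takes part in the release of Fgf1, was at 578 CPM in muscle, 619, 1091, 533 and 1149 in sarcoma cells and 416, 578, 327 and 969 in stroma. Sarcoma cells exceeded the stroma of their own library in 4 of 4, by 1.19-fold to 1.89-fold. Its log2 fold change over stroma was small but even between libraries, 0.62 ± 0.14 (edgeR adjusted p = 0.113), and 0.72 ± 0.15 without sarcoma 4 (adjusted p = 0.0652). Against muscle, 3 of 4 sarcomas were higher.

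**Figure D2:**
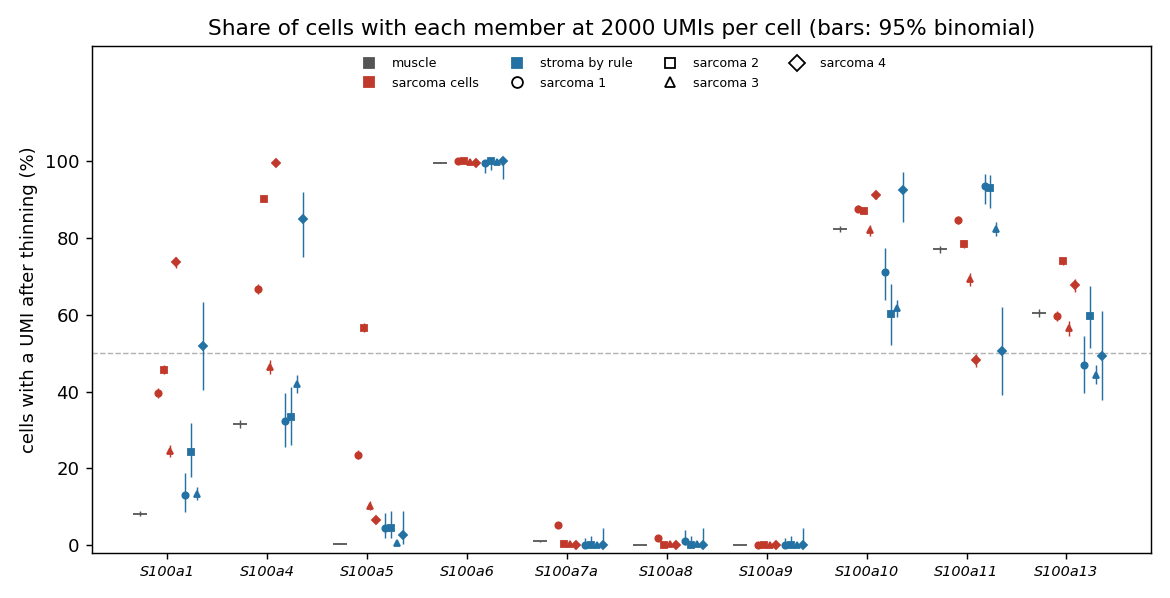
Percent of cells with at least 1 UMI of each member after thinning to 2000 UMIs per cell, by library and class, with exact 95% binomial intervals and a dashed line at 50%. S100a6 sits at 99.5% or more everywhere, S100a4 runs from 31.5% in muscle to 99.4% in the sarcoma cells of sarcoma 4, and S100a7a, S100a8 and S100a9 stay at or below 5.27%.

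S100a4, the myosin-binding member, varied widely between tumours. Muscle held 421 CPM, and the sarcoma cells of sarcomas 1 to 4 held 2013, 4292, 867 and 8145, 2.06-fold to 19.4-fold more. The stroma of sarcomas 1 to 3 stayed at 406, 443 and 506 (451 ± 50.5, SD, n = 3), close to the muscle value, while the cells that met the stroma rule in sarcoma 4 held 6702. The ratio of sarcoma cells to stroma was 4.96, 9.69, 1.72 and 1.22. Of thinned sarcoma cells 66.8%, 90.2%, 46.3% and 99.4% held a UMI, against 31.5% in muscle and 32.2%, 33.3%, 41.9% and 84.8% in the stroma classes. The log2 fold change over stroma was 1.66 ± 0.60 (edgeR adjusted p = 0.171), and 2.12 ± 0.61 without sarcoma 4 (adjusted p = 0.106). Over muscle it was 3.44 ± 1.69 (edgeR adjusted p = 0.467). The 4 tumours themselves spanned 9.39-fold.

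S100a1, known best as a calcium-handling protein of striated muscle, was low in the sorted muscle progenitors and higher in every sarcoma. It was at 45.4 CPM in muscle, at 283, 337, 157 and 849 in sarcoma cells and at 118, 155, 75.8 and 620 in the stroma classes. Each sarcoma-cell value lay above muscle, by 3.45-fold to 18.7-fold, and above its own stroma, by 1.37-fold to 2.40-fold. Thinned shares were 8.16% in muscle, 39.7%, 45.6%, 24.4% and 73.6% in sarcoma cells, and 13.1%, 24.4%, 13.4% and 51.9% in stroma. Among the members it had the smallest adjusted p against stroma (0.0711 with edgeR, log2 fold change 0.98 ± 0.16), and without sarcoma 4 it passed (1.13 ± 0.13, adjusted p = 0.0277). Over its alternatives this estimate ranged from 0.80 to 1.39 and the adjusted p from 2.29e-05 to 0.678. Over muscle the log2 fold change was 3.41 ± 1.31 (edgeR adjusted p = 0.383).

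S100a5, an EF-hand protein best known from olfactory neurons, was low in muscle and higher in the sarcoma cells of every tumour. Muscle held 131 UMIs in all, or 2.07 CPM, whereas sarcoma cells held 306, 1263, 135 and 50.5, or 148, 610, 65.4 and 24.4 times as much. It was at least 4 times the muscle level in 4 of 4 sarcomas, as were 2.23% of the genes at 10 CPM or more. The 4 tumours nonetheless spanned 25.0-fold, and the thinned share of cells ran from 6.49% in sarcoma 4 to 56.6% in sarcoma 2, against 0.388% in muscle. The stroma classes held 97.4, 76.3, 5.47 and 26.5 CPM, so that sarcoma cells exceeded stroma 3.14-fold, 16.6-fold, 24.7-fold and 1.91-fold. The log2 fold change over stroma was 2.84 ± 0.77 (edgeR adjusted p = 0.129) and 3.47 ± 0.73 without sarcoma 4 (adjusted p = 0.0635). Over muscle it was 7.98 ± 2.94 (edgeR adjusted p = 0.363).

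S100a5 in stroma was highest, relative to sarcoma cells, in sarcomas 4 and 1, whose stroma classes also held the most of the sarcoma transcripts. Stroma held S100a5 at 31.8%, 6.04%, 4.04% and 52.4% of the sarcoma-cell level in sarcomas 1 to 4, where Nefl stood at 24.4%, 7.87%, 9.15% and 123% and Pcsk1 at 11.8%, 4.43%, 8.69% and 61.9%. When stroma was limited to cells with no UMI of Gchfr, Cdkn2a, Nefl or Pcsk1, an alternative chosen after seeing the data that kept 83, 90, 1186 and 14 cells, S100a5 was at 6.73, 11.9, 1.58 and 4.01 CPM (11, 27, 41 and 1 UMIs). In those cells Dcn was at 3834, 3739, 7076 and 4032 CPM, also in sarcoma 4. Sarcoma cells then held 45.5, 107, 85.4 and 12.6 times the S100a5 of stroma, the last resting on 1 UMI, and the log2 fold change was 6.04 ± 0.44 (edgeR adjusted p = 0.00521). This selection also favours shallower cells, and the part of RNA from neighbouring cells or of mixed droplets in the wider stroma class was not tested.

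Under the same selection 3 further members passed the threshold. S100a4 was not among them (log2 fold change 2.57 ± 0.66, edgeR adjusted p = 0.0691). In stroma it was at 207, 257, 499.97 and 2108 CPM, 9.71-fold, 16.7-fold, 1.74-fold and 3.86-fold below the sarcoma cells. S100a1 (log2 fold change 1.39 ± 0.26, edgeR adjusted p = 0.0354), S100a10 (1.19 ± 0.23, 0.0351) and S100a13 (0.77 ± 0.17, 0.0473) passed 0.05 along with S100a5, so 4 of 9 tested members were higher, where 4.44% of all genes tested were (10.6% in either direction). S100a11 remained lower in the 4 libraries, at 0.828, 0.531, 0.776 and 0.410 of stroma.

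**Figure D3:**
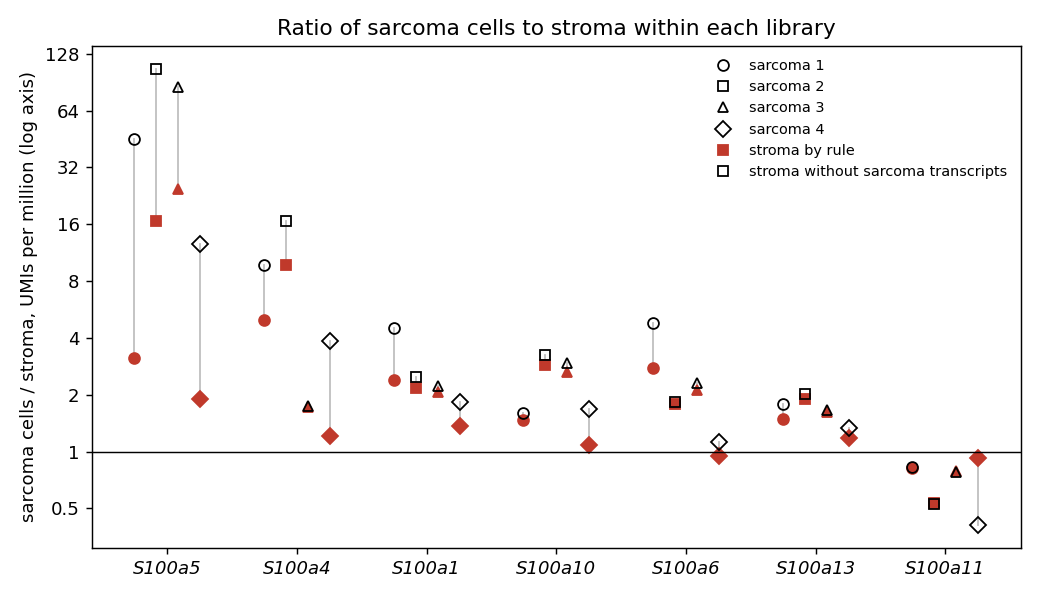
Ratio of sarcoma cells to stroma within each library on a log axis, for stroma by the rule (red, filled) and stroma with no UMI of 4 sarcoma transcripts (black, open), joined by grey lines. The S100a5 ratios rise from between 1.91 and 24.7 to between 12.6 and 107, while those of S100a11 lie below 1 in both.

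No member passed the adjusted threshold against stroma with edgeR, 0 of the 9 tested, where 171 of 14569 genes did (1.17%, with 0.233% higher and 0.94% lower). S100a9 was too low to be tested. On simulated data this edgeR fit called 50.5% of genes given an absolute log2 change of 2. The count of 0 therefore does not show that members did not differ. At an unadjusted p under 0.05, 6 members were higher (S100a1, S100a4, S100a5, S100a6, S100a10 and S100a13), as were 14% of all genes, and none was lower (12.8%). The 2 classes overlapped for every tested member, while 2.99% of genes lay wholly higher and 4.61% wholly lower in sarcoma cells. DESeq2 called these 6 members (22.1% of all genes in either direction) and limma-voom called S100a1, S100a5 and S100a13 (7.54%). Without sarcoma 4 edgeR called S100a1 (10.5%), and with every cell thinned to 2000 UMIs it called S100a1 and S100a5 (4.7%). Sarcoma cells were higher than stroma in 4 of 4 libraries for S100a1, S100a4, S100a5, S100a10 and S100a13, as for 18.3% of all genes. The median log2 fold change of the 9 members was 0.91, beside 0.07 for all genes. For the list of other S100 genes described below it was -0.16 (6 tested), so the higher median belongs to the members chosen here.

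Against muscle the edgeR count was 0 of 10 members and 0 of 17747 genes (0%), and at an unadjusted p under 0.05 it was 1 member, S100a5, and 2326 genes (13.1%, with 4.9% higher and 8.21% lower). DESeq2 called S100a1 and S100a5 (10.8% of all genes) and limma-voom no member (1.13%). S100a1, S100a4, S100a5, S100a6 and S100a10 were above muscle in 4 of 4 sarcomas, as were 20.3% of genes, and no member was below it in all 4 (31.9%). The members' median log2 fold change was 2.64, or 1.87 without S100a9, which has 0 UMIs in muscle, beside 0.19 for all genes with TMM scaling, 0.17 with DESeq2 size factors and -0.01 with library size. The value of 1.87 is that of S100a7a itself, which turned to -2.51 without sarcoma 1, and the median of the 9 members tested without that library was 0.89. Stroma against muscle gave 0 of 9 members and 0 of 12855 genes with edgeR (0%), with 0 members and 1221 genes (9.5%, with 3.56% higher and 5.94% lower) at an unadjusted p under 0.05. Stroma was above muscle in 4 of 4 libraries for S100a1 and S100a5 (18.3% of genes) and below it for S100a7a (31.1%). With stroma free of the 4 sarcoma transcripts, S100a5 in sarcoma 3 (1.58 CPM) was below muscle (2.07), and its log2 fold change over muscle was 1.63 ± 1.13 (edgeR adjusted p = 0.554), where the whole stroma class gave 4.71 ± 1.96 (adjusted p = 0.548). DESeq2 called S100a5 there (4.33% of all genes), and limma-voom called 0 genes. In both of these comparisons the single muscle library was assumed to vary like the sarcomas. On simulated data the edgeR fit of sarcoma cells against muscle made no call among genes given known changes, so its count of 0 does not show that genes did not differ.

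**Figure D4:**
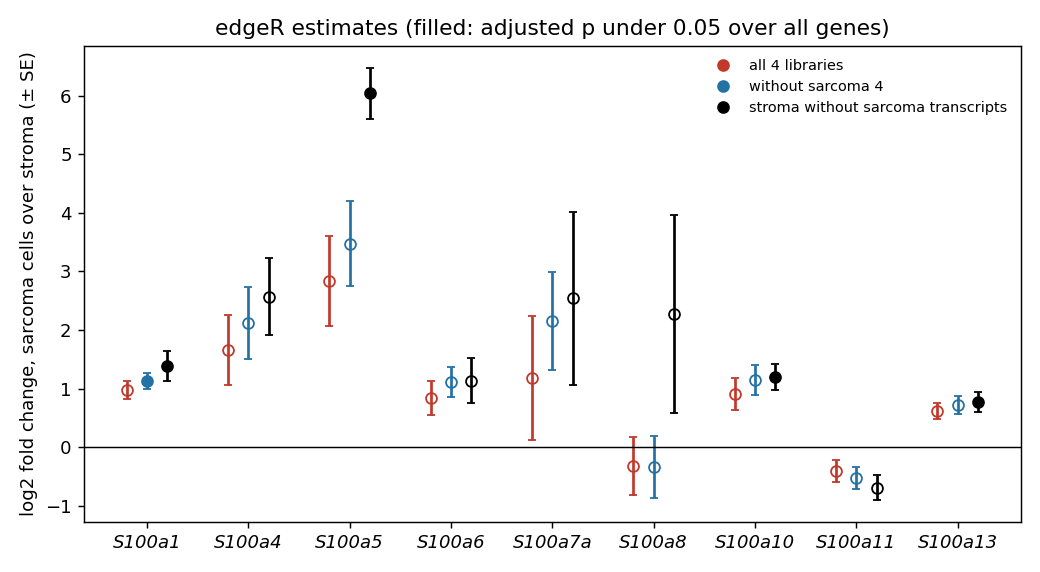
Log2 fold change of sarcoma cells over stroma with its standard error from edgeR, for all 4 libraries (red), without sarcoma 4 (blue) and with stroma free of 4 sarcoma transcripts (black); filled points have an adjusted p under 0.05 over all genes. S100a5 moves from 2.84 to 6.04, S100a1 is filled in 2 of the 3 fits, and S100a11 is below 0 in each.

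S100a8, the first calprotectin subunit, was found mainly in 1 tumour and there in few cells. It reached 0.221 CPM in muscle and 166, 1.14, 0.859 and 0.0183 in the sarcoma cells of sarcomas 1 to 4, beside 339, 0.234, 1.15 and 0 in their stroma classes. Its log2 fold change over stroma was -0.32 ± 0.50 (edgeR adjusted p = 0.707) and -0.34 ± 0.53 without sarcoma 4 (adjusted p = 0.696), and it turned to 0.49 without sarcoma 1. In sarcoma 1, 91 of 7433 kept cells held 10 or more UMIs, and these 91 held 98.9% of the library's 29344 S100a8 UMIs, with up to 1432 in a cell. Of them 77 were sarcoma cells by the rule, 13 were unclassified and 1 met the stroma rule. That 1 cell, which also held 11 Gchfr UMIs and 1 Smarcb1 UMI, carried 1432 of the 1436 UMIs behind the stroma value of 339 CPM, and without it the value was 0.958. In sarcoma 2, 4 cells with 10 or more UMIs held 83.3% of 228, and in sarcoma 3 no cell passed 4 UMIs.

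S100a9, the second subunit, did not accompany it. The 91 S100a8-rich cells of sarcoma 1 held 0 S100a9 UMIs, and S100a9 totalled 0, 6, 1, 24 and 0 UMIs in muscle and sarcomas 1 to 4. The leukocyte gene Ptprc was also at 0 UMIs in the 91 cells, their summed level of 9 leukocyte markers was 4.16 CPM (10.9 in cells of that library without S100a8), and 8 neutrophil markers summed to 5.44 (3.62). Gchfr was at 509 CPM in them and at 437 in the cells without S100a8. Cells with 10 or more UMIs of the leukocyte markers numbered 0, 27, 25, 24 and 36 in the 5 libraries, and these cells together held 10 S100a8 UMIs and 0 of S100a9. Such a count does not by itself mark leukocytes. In the sarcoma cells of sarcoma 4, Cd68 supplied 17.8 of the 18.3 CPM of this list and Ptprc had 0 UMIs.

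S100a7a, a relative of the skin protein psoriasin, was also highest in the sarcoma cells of sarcoma 1. It stood at 4.22 CPM in muscle, at 48.4, 0.721, 0.831 and 0.440 in sarcoma cells and at 3.31, 0.468, 0.400 and 1.74 in the stroma classes, so 3 of 4 tumours were below muscle. Its log2 fold change over stroma was 1.18 ± 1.06 (edgeR adjusted p = 0.493), 2.15 ± 0.84 without sarcoma 4 (adjusted p = 0.171) and -0.05 without sarcoma 1. In sarcoma 1, 870 cells held 7506 UMIs, and 243 cells with 10 or more held 75.8% of them. In this 1 library S100a8 and S100a7a met in the same cells more often than their single shares multiply to. At 2000 UMIs, 0.488% of the sarcoma cells of sarcoma 1 held both, where the product of 5.27% and 1.82% is 0.0957%. That product predicts fewer cells than the minimum set for the other pairs below, so no ratio was taken. Without thinning, 54 of the 91 S100a8-rich cells (59.3%) held S100a7a, against 10.8% of the 7088 cells with no S100a8, at median depths of 30348 and 23747 UMIs. The summed level of 9 keratinocyte markers was 13.4 CPM in the S100a8-rich cells and 16.8 in the cells without S100a8.

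**Figure D5:**
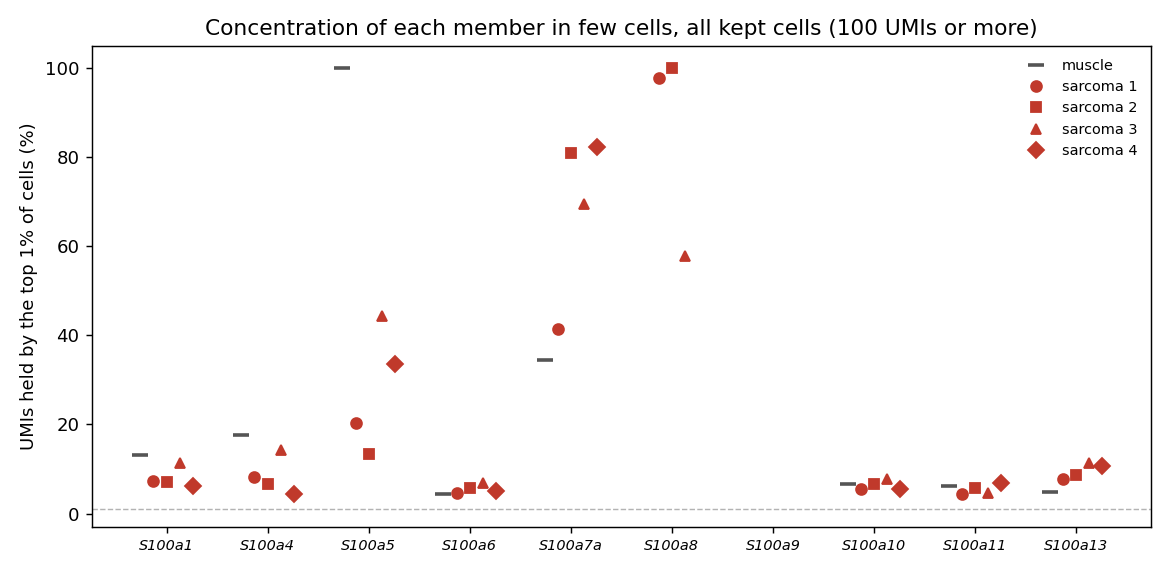
Percent of each member's UMIs held by the 1% of kept cells with the most, per library, for members with at least 100 UMIs there; the dashed line marks an even 1%. S100a6, S100a10, S100a11 and S100a13 stay at 11.3% or less, whereas S100a8 reaches 97.7% in sarcoma 1 and 100% in sarcoma 2, where 41 cells hold 228 UMIs; the muscle value of 100% for S100a5 comes from 131 UMIs in 80 cells.

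The members thus differed in how evenly their RNA was spread over cells. The top 1% of cells held 4.35% to 6.83% of S100a6 UMIs and 5.50% to 7.76% of S100a10 UMIs. For S100a5 the top 1% held 13.3% in sarcoma 2, where it was highest, and 20.2%, 44.4% and 33.5% in sarcomas 1, 3 and 4. In muscle 104 of the 131 S100a5 UMIs lay in cells with tenocyte markers. The 556 cells of that kind held it at 25.0 CPM (95% Poisson interval 20.5 to 30.3) and 4.36% of them had a UMI after thinning, against 0.492 CPM and 0.114% in 6306 progenitor cells and 0 UMIs in 727 mural cells. S100a10 was at 1708 CPM in progenitor and 272 in mural cells of the muscle, and S100a4 at 427 and 189. This split has 1 library and no replicate check.

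Other pairs of members were compared by the ratio of their joint share to the product of their separate shares in sarcoma cells. For S100a6, which nearly every cell holds, the 30 pairs and libraries are bound to lie near 1 (0.999 to 1.00). Of the other 84 with enough cells to tell, 63 lay between 0.9 and 1.1, 18 above and 3 below. A ratio cannot exceed 1 divided by the larger share. Widely held members such as S100a10 (82.0% to 91.1% of sarcoma cells) therefore leave less room above 1. The neighbours S100a1 and S100a13, whose starts lie 42 bases apart, had ratios of 1.15, 1.14, 1.15 and 1.06 in the sarcoma cells of sarcomas 1 to 4, and 1.01 in muscle. In sarcoma 1, 68.7% of sarcoma cells with an S100a1 UMI also held S100a13, while 59.7% of all sarcoma cells did. S100a1 and S100a5 gave 1.19, 1.21, 1.03 and 1.12. S100a4 and its neighbour S100a5 gave 1.03, 1.03, 1.49 and 1.00, the highest in sarcoma 3, the tumour with the lowest S100a4. In sarcomas 2 and 4 S100a4 was held by 90.2% and 99.4% of sarcoma cells, which left these ratios little room above 1. Their values near 1 cannot be read as a lack of joint excess. These ratios describe cells of the same library, which share its depth and cell mixture, and carry no test.

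Across the 9 sums of muscle, sarcoma cells and stroma, levels of S100a1 and S100a4 followed each other (Pearson r = 0.93 of log2 CPM plus 1), as did S100a4 and S100a13 (0.88) and S100a1 and S100a13 (0.81), while S100a4 and S100a11 ran opposite (-0.75). Both sums of sarcoma 4 held the most S100a4 (8145 and 6702 CPM) and S100a1 (849 and 620). They also held the least S100a11 (450 and 485). These correlations were not computed without that tumour. S100a5, next to S100a4 on the chromosome, had r = 0.38 with it and 0.71 with S100a6. Among 10544 genes the pattern most like that of S100a5 was that of the calcium-binding Cabp1 (r = 0.98), then Rps26 and Zfp593 (both 0.98). S100a4 was most like Tpp1 (0.98), S100a1 most like Cenpw (0.98), S100a10 like Rrp36 (0.98), S100a13 like Rnf168 (0.97), S100a6 like Cep250 (0.96) and S100a11 like Slfn2 (0.96). S100a8 was closest to the bone-matrix gene Dmp1 and S100a7a to Papss1 (both 0.99), both highest in a sarcoma 1 sum; for S100a8 that is the stroma sum, where 1 cell held 1432 of 1436 UMIs. The sums share libraries in pairs and the best of many genes is chosen, so these are descriptions.

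Sarcoma-library cells that met neither rule held S100a4 at 1041, 2005, 546 and 7284 CPM, S100a5 at 225, 725, 60.1 and 34.6 and S100a6 at 15902.5, 11356.5, 8844 and 8945, in the same order over the tumours as the sarcoma cells for S100a4 and S100a5. Within sarcoma cells, those with at least 3 UMIs over Mki67, Top2a and Cdk1 held S100a5 at 1.16, 1.28, 2.71 and 0.946 times the level of cells with none, and S100a1 at 0.753, 0.962, 0.614 and 1.01 times.

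No partner gene passed the test against stroma. Anxa2, the S100a10 partner, was at 1051 CPM in muscle, 1484 ± 361 in sarcoma cells (SD, n = 4) and 1213 ± 191 in stroma, a log2 fold change over stroma of 0.28 ± 0.19 (edgeR adjusted p = 0.369) and 0.39 ± 0.21 without sarcoma 4 (adjusted p = 0.280). Ahnak, a scaffold bound by the S100a10 and annexin A2 complex, was at 764, 741 ± 40.1 and 692 ± 116. Cacybp was at 75.9, 120 ± 59.2 and 92.1 ± 24.6. Myh9, the myosin heavy chain that S100a4 binds, was at 104 in muscle, 120 ± 20.9 in sarcoma cells and 223 ± 66.6 in stroma (log2 fold change -0.85 ± 0.23, edgeR adjusted p = 0.132). Without sarcoma 4 its stroma level was 241 ± 67.3 (n = 3) and the log2 fold change -1.01 ± 0.24 (edgeR adjusted p = 0.0770). The receptor gene Ager was at 0.821 CPM in muscle, 2.17 ± 1.24 in sarcoma cells and 1.15 ± 0.601 in stroma. Tlr4 was at 22.3, 10.9 ± 3.80 and 8.31 ± 3.37. By edgeR 0 of 10 tested annexins, 0 of 18 other partners, 0 of 4 receptors and 0 of 21 other EF-hand genes passed against stroma. At an unadjusted p under 0.05, 1, 6, 1 and 2 of them were higher and 2, 3, 0 and 6 lower, where 14% and 12.8% of all genes were.

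A list of 6 other S100 genes and S100pbp, which encodes an S100P-binding protein, was also read, and 0 of the 6 tested passed against stroma with edgeR (1 was lower at an unadjusted p under 0.05). The median log2 fold change of this list in sarcoma cells was -0.16 over stroma (6 tested) and 0.45 over muscle (7 tested). S100b, a glial member on chromosome 10, was lower in sarcoma cells than in stroma in 4 of 4 libraries (16.2% of tested genes were). It was also lower than muscle in 4 of 4 (31.9%). S100b was at 25.5 CPM in muscle, at 0.985 ± 1.01 in sarcoma cells (SD, n = 4) and at 17.2 ± 6.54 in the stroma of sarcomas 1 to 3 (n = 3). In sarcoma 4 S100b was at 0.696 CPM in the stroma class (2 UMIs, 95% Poisson interval 0.0843 to 2.52). The 0.348 CPM of S100b in the sarcoma cells of that tumour lies within this interval. In muscle its level was 452 CPM in the 29 cells with glial markers, but these held only 107 of its 1615 UMIs. The 6306 progenitor cells held 1315 of them, at 24.9 CPM. S100a16 was at 335 in muscle and ranged from 94.2 to 640 over the sarcoma cells of the 4 tumours.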

How the data were processed

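The measurements are raw UMI counts per gene and cell in 5 libraries, as the authors deposited them from Cell Ranger 6.0.1, per the file headers. The genome was mm10, per the submitters' processing notes; neither the release of the annotation nor how cells were called is given in the sources used here. A barcode was used when it had 500 genes or more and no more than 10% of mitochondrial UMIs, and doublets were not removed. Counts were summed per library and class and tested with edgeR 4.0.16 (quasi-likelihood, TMM, filterByExpr, Benjamini-Hochberg adjustment over all genes), with library as a block where sarcoma cells and stroma of the same tumour were compared. DESeq2 1.42.0 and limma 3.58.1 (voom) served as alternatives, in R 4.3.3, and other steps used Python 3.11.15 with numpy 2.4.6, scipy 1.17.1, pandas 2.3.3 and matplotlib 3.10.9. The block pairs cells of the same tumour. The test was checked on simulated data. Between sarcoma cells and stroma it called 47 of 93 genes given an absolute log2 change of 2 and 94 of 99 given one of 4. Between sarcoma cells and muscle it called none of the genes given known changes. For shares, UMIs were drawn at random down to 2000 in every cell, which drops cells below that depth, 384 in muscle and 120 to 349 per sarcoma. Library totals were 64061069 UMIs in muscle and 151903246 to 213271163 in the sarcomas.

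All 10 members are named. Of the partner lists, Anxa2, Ahnak, Cacybp, Myh9, Ager and Tlr4 are named always, and otherwise the 4 genes with the largest change among those past the threshold, of which there were none. For likeness the 3 genes with the highest correlation were taken. Members and lists were chosen with earlier results of these data known. Gene positions come from GENCODE M21 and promoter sequences from RefSeq (GRCm38.p6).

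Markers of other cell types were summed in each class, in CPM. Muscle held leukocyte markers at 4.52, sarcoma cells at 6.81 to 18.3 and the stroma classes at 12.3 to 30.1. Neutrophil markers summed to 0.900 in muscle and 0.156 to 9.20 in sarcoma cells, and keratinocyte markers to 53.2 and 15.7 to 165. Endothelial markers summed to 5.73 and 2.33 to 321, glial markers to 117 and 1.56 to 65.8, mural markers to 641 and 8.97 to 29.3, and tenocyte markers to 1767 and 216 to 1290.1. Some top sums in sarcoma cells were mostly 1 gene of the list. These were Cldn5 at 318 (endothelial, sarcoma 2), Mbp at 63.4 (glial, sarcoma 3) and Thbs4 at 1289.9 (tenocyte, sarcoma 1). The same held for Camp at 8.91 (neutrophil, sarcoma 3) and Cd68 at 17.8 (leukocyte, sarcoma 4). Such a sum does not by itself mark a cell type. Progenitor markers summed to 4319 and 47.0 to 424, melanocyte markers to 2.89 and 0.286 to 0.493, erythroid markers to 1.60 and 0.467 to 4.84, and myogenic markers to 144 and 0.249 to 7.37.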

Additional observations from a re-analysis of the deposited data

Results flagged for a closer look

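In 6 of 20 member and class groups of 4 libraries, 1 library lay far from the other 3, with a gap to the nearest library of 0.855 to 1 of the whole range, past the 95% critical value of Dixon. Chance gives about 1 in 20 such groups. The stroma class of sarcoma 4, whose cells held few fibroblast transcripts, stood apart for S100a1 at 620 CPM and for S100a4 at 6702 CPM. Sarcoma 1 stood apart in its sarcoma cells for S100a7a at 48.4 CPM and for S100a8 at 166 CPM. It also stood apart in its stroma for S100a8 at 339 CPM, of which 1432 of 1436 UMIs lay in 1 cell. The stroma of sarcoma 3 stood apart for S100a9 at 0.250 CPM, which is 10 UMIs, where the other 3 stroma classes held none. Those classes hold fewer cells, their upper 95% limits of 0.872, 0.863 and 1.28 CPM all lie above 0.250, and so the difference was not detectable at this depth.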

How the results depend on the processing

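Sarcoma cells against stroma gave 171 genes with edgeR, but 3218 with DESeq2, 1099 with limma-voom, 523 with thinned cells, 551 with stroma at 8 or more UMIs, 1186 with stroma holding a Smarcb1 UMI, 1474 with stroma free of 4 sarcoma transcripts (chosen after seeing the data) and 12 with cells of both rules kept in both. Without the replicate block, which pairs the 2 classes of each tumour, it was 38. Leaving out 1 library gave 0 to 1567, with 0 without sarcoma 1 or sarcoma 2, 2 without sarcoma 3 and 1567 without sarcoma 4. Sarcoma cells against muscle gave 0 genes, but 1912 with DESeq2 and 200 with limma-voom. Stroma against muscle gave 0, but 557 with DESeq2, 20 with thinned cells, 61 with a Smarcb1 UMI, 293 without the sarcoma transcripts, and 0 to 176 leaving out 1 library (176 without sarcoma 4). No paired analysis was possible because muscle, in these last comparisons, is a single library, and the groups share fewer than 2 replicate numbers.

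Some log2 fold changes turned sign. Against stroma, S100a8 (-0.32) became 2.42 with stroma at 8 or more UMIs, 2.70 with stroma at Gchfr 0 and 2.28 without the sarcoma transcripts, and ranged from -0.73 to 0.49 leaving out 1 library (0.49 without sarcoma 1). The sarcoma 1 stroma cell with 1432 of the 1436 S100a8 UMIs held 11 Gchfr UMIs. It is therefore absent from stroma at Gchfr 0 and without the sarcoma transcripts. In the latter, sarcoma 1 stroma held S100a8 at 1.83 CPM (3 UMIs). S100a7a ranged from -0.048 (without sarcoma 1) to 2.15. Sarcoma cells against muscle gave S100a7a -0.86 with limma-voom and -2.51 (without sarcoma 1) to 2.27 leaving out 1 library. There S100a11 was 0.012 with no filter, 0.0060 at Gchfr 4 or more, and -0.33 to 0.20 leaving out 1 library. Stroma against muscle gave S100a6 at -0.0025 with limma-voom, -0.060 with library size, -0.034 with no filter, -0.22 thinned, -0.11 at 8 or more UMIs and at Gchfr 0, -0.065 with a Smarcb1 UMI, -0.30 without the sarcoma transcripts, -0.072 against muscle progenitors, and -0.076 to 0.15 leaving out 1 library. S100a13 there was -0.030, -0.014, -0.15, -0.052, -0.0034, -0.13 and -0.099 with limma-voom, library size, thinning, 8 or more UMIs, a Smarcb1 UMI, no sarcoma transcripts and muscle progenitors, and -0.28 to 0.24 leaving out 1 library. The cause was not tested. Of the other member values, 136, 129 and 128 kept direction and side of the threshold in the comparisons of sarcoma cells with stroma, sarcoma cells with muscle and stroma with muscle, and 19, 2 and 1 passed it where the first fit had not. S100a9, with 0 to 24 UMIs per library, was too sparse to show a difference at this depth.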
